A study of Arabidopsis thaliana with 25 samples.

Results

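The genes described here are 3 beta-tubulin genes, TUB1, TUB6 and TUB7, and 3 genes of the TRM (TON1 recruiting motif) family, TRM19, TRM20 and TRM27, in roots of Arabidopsis thaliana in which a PEAR transcription factor was activated. They are 6 of 16746 rows of the array table that name 1 gene. RefSeq lists 9 beta-tubulin and 34 TRM genes, of which 5 and 15 had a row with 1 gene. The members were chosen by their measured values, with the values of all 8 groups known. The choice names the genes and not the values behind it. PEAR2-GR with DEX+CHX against DMSO+CHX is taken here as the comparison used, because the 6 are exactly those of these 20 rows that were higher there past the threshold used here. Their levels and differences are therefore given as a description, without p-values, and "past the threshold" means an adjusted p under 0.05 (limma with Benjamini-Hochberg adjustment over 17504 rows that name a gene).

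Microtubules are hollow filaments built from dimers of alpha-tubulin and beta-tubulin, and each beta-tubulin gene encodes one version of the same subunit. In plant cells microtubules form the cortical array that guides cellulose deposition, the preprophase band that marks the future division plane, the spindle, and the phragmoplast that builds the new cell wall. TRM proteins carry a short motif that binds TON1, and some of them bring TON1 and a protein phosphatase to microtubules, a complex needed for the preprophase band. Root tips hold many dividing cells and use all of these arrays. For TRM19, TRM20 and TRM27 no role beyond the family motif is taken as known here.

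The PEAR1 and PEAR2 proteins are DOF-type transcription factors. Each was expressed as a fusion to the glucocorticoid receptor (GR), which keeps a protein in the cytoplasm until dexamethasone (DEX) is added. Cycloheximide (CHX) blocks translation, so that RNA changes seen with it do not need newly made proteins. The plants were ecotype Col-0 seedlings, 4 days old, with the construct pRPS5A::PEAR1-GR in one line and pRPS5A::PEAR2-GR in the other. The RPS5A promoter is active mainly in dividing cells. In each line the groups were DEX+CHX for 2 h, DMSO+CHX for 2 h, DEX for 2 h and DMSO for 1 h. There were 3 arrays in each group except PEAR1-GR with DEX+CHX, which had 4, making 25 arrays in 8 groups. All groups carry a GR fusion, and a line without one was not analysed here. The labels call the tissue roots in some fields and root tips in another.

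The design limits several comparisons. DMSO was given for 1 h and DEX for 2 h, so an effect of DEX and one of time cannot be told apart in DEX against DMSO. The DMSO+CHX arrays of both lines form arraying batch A461, while the other groups are in batch A451, so an effect of DEX and one of batch cannot be told apart in DEX+CHX against DMSO+CHX. The comparison of DEX+CHX with DEX lies within 1 batch and 1 time. Replicates are not said to come from separate cultures, so the standard errors (SE) and p-values measure no more than how these samples vary, and part of that may be technical. The number of arrays limits the precision. In whole roots, fewer cells of a type and less RNA per cell cannot be told apart.

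Facts of the whole series that touch these genes are few. The row of PEAR2 (AT5G02460) was between 10.73 and 12.11 on the log2 scale on the 12 PEAR2-GR arrays and between 5.91 and 8.90 on the 13 PEAR1-GR arrays. Of 15 root markers only EXPA7, a root-hair expansin, had a row, with group means of 9.43 to 9.88. Of 14 green tissue markers only RCA, Rubisco activase, had one, with group means of 5.80 to 7.04. No marker of either list other than these was read. Averaged over all arrays, the 6 members lie above 65.7% to 87.6% of rows, so none is among the dimmest.

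**Figure D1:**
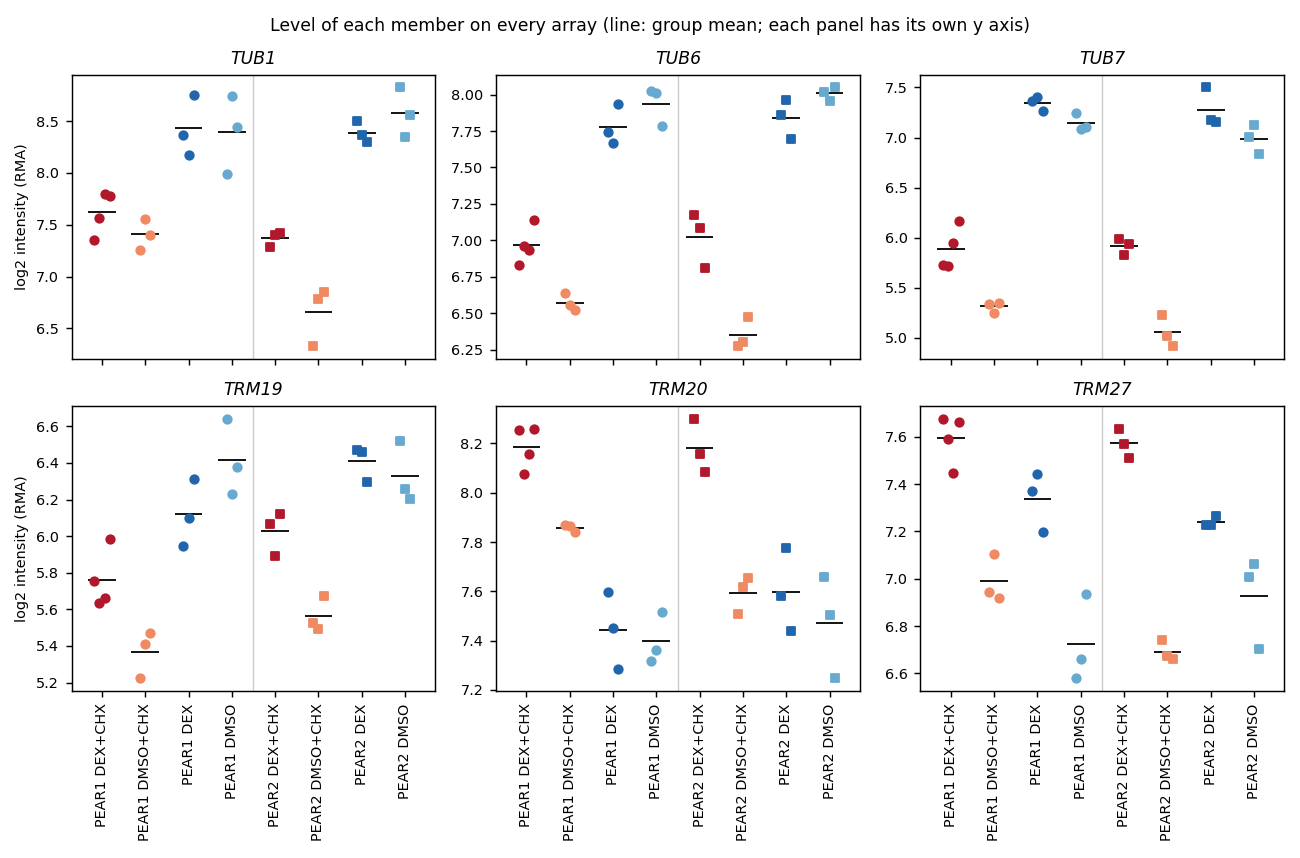
The log2 intensity (y axis, RMA) of each of the 6 genes on each of the 25 arrays, with 1 point an array, 1 column a group (x axis) and a line at the group mean; circles are PEAR1-GR and squares PEAR2-GR. The 3 beta-tubulin rows are lower in every CHX group than in every group without CHX, while TRM20 is highest in the DEX+CHX groups, with means of 8.19 and 8.18.

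Among the beta-tubulins, TUB1 (AT1G75780) had log2 intensities of 7.36, 7.56, 7.80 and 7.78 in PEAR1-GR roots with DEX+CHX, against 7.26, 7.56 and 7.40 with DMSO+CHX. These groups overlap, and their means differed by 0.22 ± 0.17 (log2, SE), short of the threshold. PEAR2-GR roots read 7.28, 7.40 and 7.42 with DEX+CHX, against 6.33, 6.78 and 6.85 with DMSO+CHX. Here every DEX+CHX array was above every DMSO+CHX array, by 0.72 ± 0.19 on average (log2, a 1.64-fold difference). Without CHX, PEAR1-GR roots read 8.37, 8.18 and 8.75 with DEX, against 7.99, 8.74 and 8.44 with DMSO. For PEAR2-GR roots these log2 intensities were 8.50, 8.37 and 8.30 with DEX, against 8.83, 8.34 and 8.56 with DMSO. Both pairs overlap, with differences of 0.04 ± 0.19 in PEAR1-GR and -0.19 ± 0.19 in PEAR2-GR (log2, SE). TUB1 was lower in the presence of CHX, and DEX+CHX differed from DEX by -0.81 ± 0.17 in PEAR1-GR and -1.02 ± 0.19 in PEAR2-GR. The lowest group for TUB1 was PEAR2-GR with DMSO+CHX, with a mean of 6.65, and its neighbour, PEAR2-GR with DEX+CHX at 7.37, did not overlap with it.

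TUB6 (AT5G12250), a beta-tubulin too, gave the following log2 intensities. In PEAR1-GR roots TUB6 read 6.83, 6.96, 6.93 and 7.14 with DEX+CHX, against 6.64, 6.56 and 6.52 with DMSO+CHX. In PEAR2-GR roots TUB6 read 7.17, 7.08 and 6.81 with DEX+CHX, against 6.27, 6.30 and 6.47 with DMSO+CHX. In neither line did the groups overlap, and DEX+CHX was higher by 0.39 ± 0.11 in PEAR1-GR and 0.67 ± 0.12 in PEAR2-GR (log2, SE). Without CHX, the PEAR1-GR arrays read 7.74, 7.66 and 7.93 with DEX, against 8.02, 8.01 and 7.78 with DMSO. The PEAR2-GR arrays read 7.86, 7.97 and 7.69 with DEX, against 8.02, 7.96 and 8.05 with DMSO. DEX was slightly below DMSO on average and overlapped with it in both lines, with differences of -0.16 ± 0.12 and -0.17 ± 0.12 (log2, PEAR1-GR and PEAR2-GR in that order). TUB6 was lower with CHX as well, with a difference of DEX+CHX from DEX of -0.81 ± 0.11 in PEAR1-GR and -0.82 ± 0.12 in PEAR2-GR.

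TUB7 (AT2G29550) had the widest range of group means of the 6 genes, 2.29 on the log2 scale, with the highest in PEAR1-GR with DEX and the lowest in PEAR2-GR with DMSO+CHX. In PEAR1-GR roots TUB7 read 5.73, 5.72, 5.95 and 6.16 with DEX+CHX, against 5.34, 5.24 and 5.35 with DMSO+CHX. In PEAR2-GR roots TUB7 read 5.99, 5.83 and 5.94 with DEX+CHX, against 5.23, 5.02 and 4.91 with DMSO+CHX. The groups did not overlap in either line, and DEX+CHX was higher by 0.58 ± 0.12 (1.49-fold) in PEAR1-GR and 0.87 ± 0.13 (1.82-fold) in PEAR2-GR. Without CHX, TUB7 read 7.36, 7.41 and 7.27 with DEX in PEAR1-GR roots, against 7.24, 7.09 and 7.11 with DMSO. In PEAR2-GR roots without CHX, TUB7 read 7.50, 7.17 and 7.16 with DEX, against 7.01, 7.13 and 6.84 with DMSO. TUB7 is the one beta-tubulin here whose DEX arrays all lay above the DMSO arrays in both lines, though the differences of 0.20 ± 0.13 and 0.29 ± 0.13 (log2, PEAR1-GR and PEAR2-GR in that order) did not reach the threshold. With DEX+CHX, TUB7 was 2.74-fold lower than with DEX in PEAR1-GR and 2.56-fold lower in PEAR2-GR, at -1.45 ± 0.12 and -1.36 ± 0.13 (log2, SE).

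Of the TRM genes, TRM19 (AT3G53540) lay nearest to the threshold in the comparison taken as the choice. In PEAR1-GR roots TRM19 read 5.75, 5.64, 5.66 and 5.99 (log2 intensity) with DEX+CHX, against 5.23, 5.41 and 5.47 with DMSO+CHX. In PEAR2-GR roots TRM19 read 6.07, 5.89 and 6.12 with DEX+CHX, against 5.53, 5.49 and 5.67 with DMSO+CHX. The groups did not overlap in either line. The differences were 0.39 ± 0.12 in PEAR1-GR, which did not reach the threshold, and 0.46 ± 0.13 in PEAR2-GR, which did (log2, SE). Without CHX, TRM19 read 5.95, 6.10 and 6.31 with DEX in PEAR1-GR roots, against 6.64, 6.23 and 6.38 with DMSO. In PEAR2-GR roots without CHX, TRM19 read 6.47, 6.46 and 6.30 with DEX, against 6.52, 6.26 and 6.20 with DMSO. These pairs overlap, with differences of opposite sign, -0.30 ± 0.13 in PEAR1-GR and 0.08 ± 0.13 in PEAR2-GR, neither past the threshold. The difference of DEX+CHX from DEX was -0.36 ± 0.12 for TRM19 in PEAR1-GR, where the groups overlap, and -0.38 ± 0.13 in PEAR2-GR, where they do not.

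TRM20 (AT4G28760) was highest in the DEX+CHX groups of both lines. In PEAR1-GR roots TRM20 read 8.26, 8.07, 8.16 and 8.26 (log2 intensity) with DEX+CHX, against 7.87, 7.87 and 7.84 with DMSO+CHX. In PEAR2-GR roots TRM20 read 8.30, 8.16 and 8.09 with DEX+CHX, against 7.51, 7.62 and 7.66 with DMSO+CHX. Neither pair overlaps, and the differences were 0.33 ± 0.11 in PEAR1-GR, short of the threshold, and 0.59 ± 0.12 in PEAR2-GR (log2, SE). Without CHX, TRM20 read 7.60, 7.45 and 7.28 with DEX in PEAR1-GR roots, against 7.32, 7.36 and 7.52 with DMSO. In PEAR2-GR roots without CHX, TRM20 read 7.58, 7.77 and 7.44 with DEX, against 7.66, 7.51 and 7.25 with DMSO. DEX and DMSO overlap in both lines, with differences of 0.05 ± 0.12 and 0.13 ± 0.12. Unlike the beta-tubulins, TRM20 was higher with CHX: DEX+CHX exceeded DEX by 0.74 ± 0.11 in PEAR1-GR and 0.58 ± 0.12 in PEAR2-GR (log2). A further row is annotated to both TRM20 and AT4G28770, whose loci overlap in RefSeq. That row did not pass the threshold for DEX+CHX against DMSO+CHX, with differences of -0.07 ± 0.09 in PEAR1-GR and -0.04 ± 0.10 in PEAR2-GR, and it was lower with DEX+CHX than with DEX, at -0.37 and -0.31 (PEAR1-GR and PEAR2-GR in that order). The 2 rows thus differ in direction under CHX, and which transcript each one reads was not tested.

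TRM27 (AT2G36420) was the one member that passed the threshold by DEX without CHX. In PEAR1-GR roots TRM27 read 7.37, 7.44 and 7.20 (log2 intensity) with DEX, against 6.58, 6.66 and 6.94 with DMSO, a difference of 0.61 ± 0.11 (1.53-fold). In PEAR2-GR roots TRM27 read 7.23, 7.23 and 7.27 with DEX, against 7.01, 7.06 and 6.70 with DMSO, a difference of 0.32 ± 0.11 that did not reach the threshold. DEX and DMSO did not overlap in either line. With CHX, TRM27 read 7.67, 7.59, 7.45 and 7.66 with DEX+CHX in PEAR1-GR roots, against 6.95, 7.10 and 6.92 with DMSO+CHX. In PEAR2-GR roots with CHX, TRM27 read 7.64, 7.57 and 7.51 with DEX+CHX, against 6.74, 6.67 and 6.66 with DMSO+CHX. DEX+CHX was again above DMSO+CHX on every array, by 0.61 ± 0.10 in PEAR1-GR and 0.88 ± 0.11 in PEAR2-GR (log2, SE). TRM27 was also higher with DEX+CHX than with DEX, by 0.26 ± 0.10 in PEAR1-GR and 0.33 ± 0.11 in PEAR2-GR. In PEAR1-GR roots, RCA, the green tissue marker with a row, was lower with DEX than with DMSO, at -0.61 ± 0.16 (log2; adjusted p = 0.0414, limma with Benjamini-Hochberg adjustment), and its part in the TRM27 difference was not tested. The RCA call was lost without PEAR1-GR DMSO replicate 1 or 3, or any of the 3 DEX replicates (-0.77 to -0.51).

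Seen over the 8 groups, the members fall into several orders of level. For TUB1, TUB6 and TUB7 the 4 groups without CHX were on top, and the lowest of them did not overlap with the highest CHX group, which lay 0.77, 0.76 and 1.07 below it (log2 group means). Among the groups without CHX, neighbours in the order overlap for all 3 genes. TRM19 also had the groups without CHX on top, but without a break: the lowest group without CHX, PEAR1-GR with DEX at 6.12, and the highest with CHX, PEAR2-GR with DEX+CHX at 6.03, overlap. For TRM20 and TRM27 the DEX+CHX groups were on top, and these overlap with each other but not with the group that came next. Below them the orders of TRM20 and TRM27 differ. By mean, TRM27 had every DEX group above every group without DEX. At that break PEAR2-GR with DEX at 7.24 did not overlap with PEAR1-GR with DMSO+CHX at 6.99. For TRM20, PEAR1-GR with DMSO+CHX came next at 7.86. Neighbours overlap among its remaining groups, which include DEX of both lines. The ranges of group means were 1.05 for TRM19, 0.79 for TRM20 and 0.90 for TRM27, against 1.92 for TUB1 and 1.66 for TUB6 (log2). The choice is taken to favour a high place for PEAR2-GR with DEX+CHX and a low place for PEAR2-GR with DMSO+CHX. Nothing is read from the places of these groups.

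**Figure D2:**
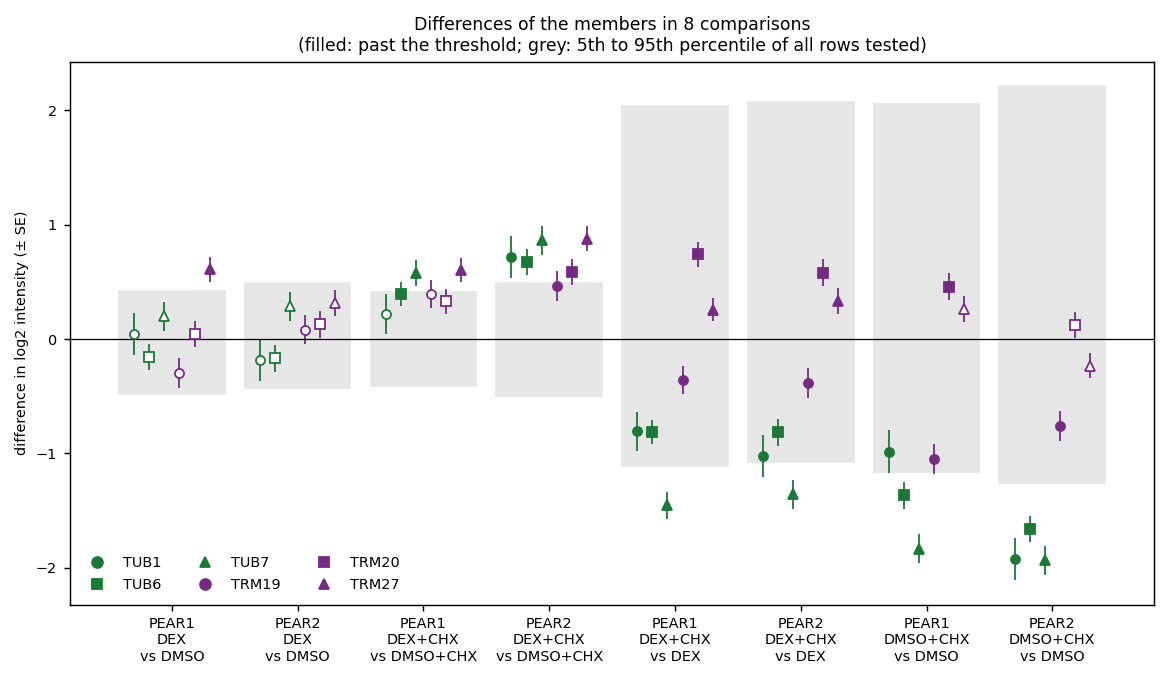
Difference in log2 intensity (y axis, with SE as bars) of each of the 6 genes in 8 comparisons (x axis), filled where past the threshold, beside the 5th to 95th percentile of all rows tested (grey). All 6 symbols are filled for PEAR2-GR with DEX+CHX against DMSO+CHX, where they lie between 0.46 and 0.88, and the beta-tubulins lie below 0 wherever a group with CHX is set against one without.

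DEX given with CHX asks which RNAs respond to the activated factor without new protein. In PEAR2-GR roots 6 of 6 members were past the threshold and higher, the feature by which they are taken to have been chosen. Of all rows tested, 3.96% were called higher there, and nothing is read from the members' count. The arrays of all 6 did not overlap there either, in the same arrays and the same comparison, where 11.6% of all rows were higher without overlap, and nothing is read from that count. The rows of the same families just outside the threshold were TRM26 at 0.27 ± 0.10, TUB5 at 0.57 ± 0.21 and TRM22 at 0.47 ± 0.20, and the member just inside was TRM19 at 0.46 ± 0.13 (log2, SE). Leaving out 1 array ended the TRM19 call for 5 of the 6 arrays compared, all except PEAR2-GR DEX+CHX replicate 2, with differences of 0.42 to 0.53. TUB1 lost its call without PEAR2-GR DEX+CHX replicate 2 or 3, or without PEAR2-GR DMSO+CHX replicate 1, with differences of 0.55 to 0.81. TUB6, TUB7, TRM20 and TRM27 stayed past the threshold whichever of the 6 arrays was left out. Fitted on the 6 arrays alone, TUB1 and TRM19 were no longer past the threshold.

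In PEAR1-GR roots 3 of 6 members, TUB6, TUB7 and TRM27, were past the threshold with DEX+CHX against DMSO+CHX, where 2.18% of all rows were called higher. The median difference of the 6 was 0.39 in PEAR1-GR and 0.69 in PEAR2-GR, beside -0.01 and -0.02 over all rows (log2), and the choice on PEAR2-GR favours the larger value there. The arrays of 5 members did not overlap, TUB1 being the exception, while 8.42% of all rows were higher without overlap. The PEAR1-GR values were known when the members were chosen, and the DMSO+CHX arrays of both lines share batch A461. PEAR1-GR is thus no independent reading, and nothing is read from the members' counts. TUB6 lost its call without PEAR1-GR DEX+CHX replicate 2, 3 or 4 and without any DMSO+CHX replicate, with differences of 0.34 to 0.44, whereas TUB7 and TRM27 stayed past the threshold whichever of the 7 arrays was left out. Fitted on the 7 arrays alone, TUB6 and TUB7 were no longer past the threshold, which left TRM27.

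The difference between lines in DEX+CHX against DMSO+CHX was not past the threshold for any of the 6 genes. Its estimate was below 0 for each, which a choice made on the PEAR2-GR values favours, and nothing is read from that direction. PEAR1-GR minus PEAR2-GR was -0.50 ± 0.25 for TUB1, -0.28 ± 0.16 for TUB6 and -0.29 ± 0.17 for TUB7 (log2). The TRM genes gave -0.07 ± 0.18 for TRM19, -0.26 ± 0.16 for TRM20 and -0.27 ± 0.15 for TRM27. With limma, 0 of 6 had an unadjusted p under 0.05, and 0.0171% of all rows were called in either direction. A batch offset that is the same in both lines cancels in this difference. In DMSO the lines differed by between -0.20 and 0.16 for the 6 genes, 0 of them past the threshold and 0 at an unadjusted p under 0.05, beside 0.189% of all rows called.

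Without CHX, DEX against DMSO left 1 of 6 members past the threshold in PEAR1-GR roots (TRM27, higher) and 0 of 6 in PEAR2-GR roots. At an unadjusted p under 0.05 (limma) there were 2 of 6 in each line. The share of all rows at that level was not computed, and nothing is read from these 2 of 6. Of all rows, 1.27% were called higher and 1.81% lower in PEAR1-GR, and 2.15% higher and 1.95% lower in PEAR2-GR. In each line 2 of 6 members, TUB7 and TRM27, were higher without overlap, beside 8.92% of all rows in PEAR1-GR and 9.26% in PEAR2-GR. The share of all rows higher without overlap in both lines at once was not computed, and nothing is read from the members' count. Fitted on the 6 PEAR1-GR arrays alone, the call of TRM27 was lost. The difference between the lines in this response ran from -0.38 ± 0.18 for TRM19 to 0.29 ± 0.16 for TRM27 (PEAR1-GR minus PEAR2-GR, log2), with 0 of 6 past the threshold, 0 at an unadjusted p under 0.05, and 0.109% of all rows called.

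The DEX difference with CHX was set against that without CHX within each line. In PEAR2-GR this contrast contains the DEX+CHX against DMSO+CHX values that the choice is taken to rest on, so its values are a description and nothing is read from the calls. In PEAR2-GR roots the DEX difference was larger with CHX, past the threshold, for TUB1 by 0.90 ± 0.26, for TUB6 by 0.84 ± 0.16 and for TRM27 by 0.56 ± 0.16 (log2), beside 2.99% of all rows called higher. In PEAR1-GR roots the DEX difference was larger with CHX for TUB6 by 0.55 ± 0.16 and for TRM19 by 0.69 ± 0.18, beside 2.78% of all rows. For TRM27 in PEAR1-GR the DEX difference with CHX minus that without was -0.00 ± 0.15. Most of these calls rested on the full set of arrays. Leaving out 1 array ended the call of TUB6 in PEAR1-GR for 10 of 13 arrays (0.50 to 0.63) and of TRM19 in PEAR1-GR for 5 of 13 (0.58 to 0.78). In PEAR2-GR it ended that of TUB1 for 10 of 12 (0.74 to 1.02), that of TRM27 for 11 of 12 (0.49 to 0.67) and that of TUB6 for none (0.77 to 0.95). Time and batch both enter this contrast and cannot be told apart from CHX. RCA, the green tissue marker, gave 0.93 ± 0.22 in PEAR1-GR, past the threshold, and 0.58 ± 0.23 in PEAR2-GR, short of it. The RCA call was lost without PEAR1-GR DMSO replicate 3 or PEAR1-GR DMSO+CHX replicate 1 (0.82 to 1.09), and its part in the members' differences was not tested.

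Each of the 6 genes stood at another level with CHX in the comparison that shares batch and time. With DEX+CHX, TUB1, TUB6, TUB7 and TRM19 were lower than with DEX, and TRM20 and TRM27 were higher. In both lines 6 of 6 were past the threshold. Many rows were: in PEAR1-GR 46.0% of all rows were called in either direction and 26.0% were lower. In PEAR2-GR 45.2% were called and 26.3% were lower. The PEAR2-GR DEX+CHX arrays are those whose high values the choice is taken to rest on. That favours higher values of the members here, as for TRM20 and TRM27, and nothing is read from the members' PEAR2-GR count. Quantile normalization applied once more moved the median of all rows, which was -0.0937 in PEAR1-GR and -0.123 in PEAR2-GR, to 0.145 and 0.12, and the 6 genes kept their direction and their calls. Of the TRM calls, TRM27 in PEAR1-GR was lost without DEX+CHX replicate 1, 2 or 4 and without DEX replicate 1 or 3 (0.19 to 0.31). TRM27 in PEAR2-GR was lost without PEAR2-GR DEX+CHX replicate 1 (range 0.30 to 0.36). TRM19 was lost in PEAR1-GR without DEX+CHX replicate 2 or DEX replicate 3 (-0.45 to -0.27). In PEAR2-GR TRM19 was lost without DEX+CHX replicate 2, DEX replicate 1 or DEX replicate 2 (-0.44 to -0.32). Fitted on the arrays compared alone, TRM27 lost its call in both lines and TRM19 in PEAR1-GR. RCA was lower with DEX+CHX than with DEX in PEAR2-GR, at -0.42 ± 0.16 (adjusted p = 0.0378, limma with Benjamini-Hochberg adjustment), and differed by -0.20 ± 0.15 in PEAR1-GR, short of the threshold. That call was lost without PEAR2-GR DEX+CHX replicate 1 or 3 or any PEAR2-GR DEX replicate (-0.60 to -0.28), and the part of RCA in the members' differences was not tested. The difference between lines in this CHX response was past the threshold for 0 of 6 genes, with 0 at an unadjusted p under 0.05 and 0.0400% of all rows called.

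Without DEX, CHX was set against DMSO across batch and time. TUB7 was 3.57-fold lower with DMSO+CHX than with DMSO in PEAR1-GR and 3.83-fold lower in PEAR2-GR, at -1.83 ± 0.13 and -1.94 ± 0.13 (log2, SE). TUB6 was also lower, at -1.37 ± 0.12 and -1.66 ± 0.12, as were TUB1 at -0.99 ± 0.19 and -1.92 ± 0.19, and TRM19 at -1.05 ± 0.13 and -0.76 ± 0.13 (log2, PEAR1-GR and PEAR2-GR in that order). TRM20 was higher past the threshold in PEAR1-GR (0.46 ± 0.12) but not in PEAR2-GR (0.12 ± 0.12), and TRM27 passed it in neither (0.26 ± 0.11 in PEAR1-GR and -0.23 ± 0.11 in PEAR2-GR). Of all rows, 20.3% were called higher and 25.2% lower in PEAR1-GR, and 21.5% higher and 25.2% lower in PEAR2-GR. RCA was lower in the same comparison and passed the threshold in both lines, with means of 5.80 with DMSO+CHX against 6.93 with DMSO in PEAR1-GR, and 6.04 against 7.04 in PEAR2-GR. EXPA7 did not pass, with differences of -0.18 and -0.28. The part of either marker in these differences was not tested. This comparison shares its DMSO+CHX arrays with DEX+CHX against DMSO+CHX, where the same arrays are the control, and the DEX+CHX arrays likewise serve in 2 comparisons. The choice is taken to rest in part on low PEAR2-GR DMSO+CHX values. That favours lower values of the members with DMSO+CHX than with DMSO in PEAR2-GR. Nothing is read from the members' calls or sizes there.

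**Figure D3:**
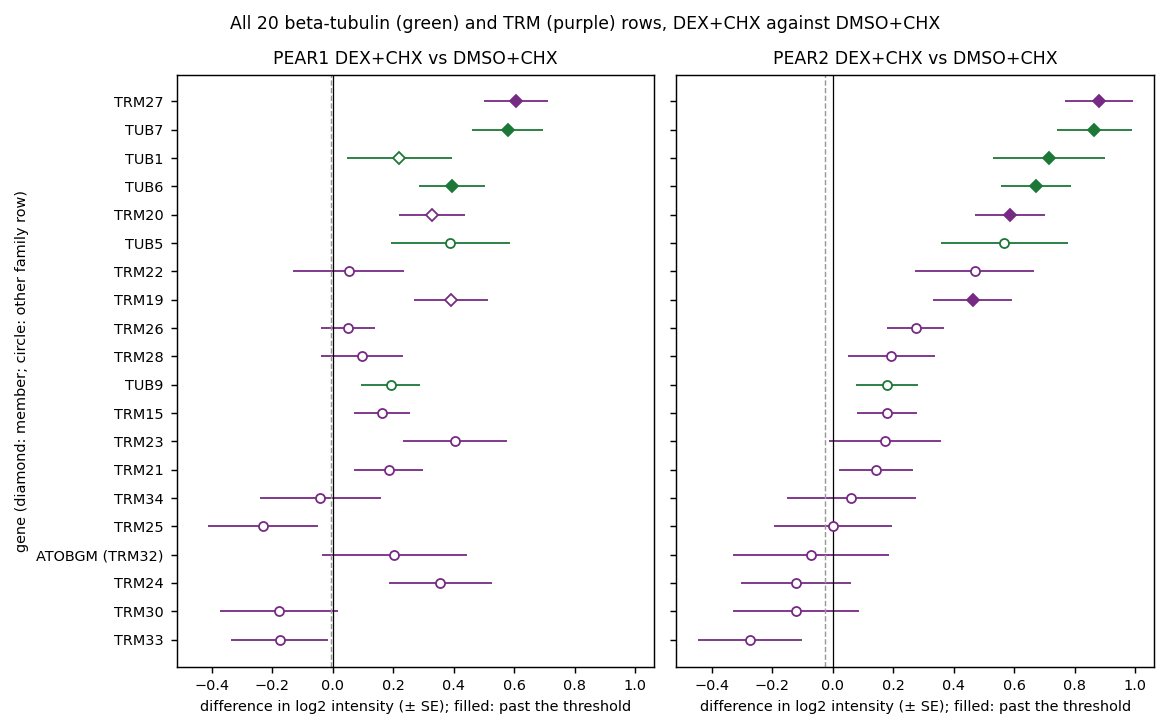
Difference in log2 intensity with SE (x axis) of all 20 beta-tubulin and TRM rows (y axis), DEX+CHX against DMSO+CHX, in PEAR1-GR (left) and PEAR2-GR (right), with diamonds for the members and filled symbols past the threshold. In PEAR2-GR the members hold all the filled symbols because the choice is taken to rest on that comparison, and TUB5 at 0.57 lies among them with an SE of 0.21.

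The other 14 beta-tubulin and TRM rows with 1 gene show what the choice left out. For DEX+CHX against DMSO+CHX, limma called 0 of 14 in either line, with 2 at an unadjusted p under 0.05 in PEAR1-GR and 3 in PEAR2-GR. Their median differences were 0.13 and 0.16 (log2), and 10 of 14 lay above 0 in each line. The 14 include TRM23, TRM24 and TRM33, with group means of 1.97 to 2.64, 2.12 to 2.67 and 1.48 to 1.83 (log2). These lie below the 2.68 that bounds the 33.3% of rows with the lowest mean, so changes in them may be missed. The 2 other beta-tubulins with a row, TUB5 and TUB9, differed by 0.39 ± 0.20 and 0.19 ± 0.10 in PEAR1-GR and by 0.57 ± 0.21 and 0.18 ± 0.10 in PEAR2-GR, short of the threshold. By DEX against DMSO, 1 of 14 was lower in each line and 0 higher. TRM28 fell in PEAR1-GR, at -0.57 ± 0.14 (adjusted p = 0.0288, limma with Benjamini-Hochberg adjustment), and TRM25 in PEAR2-GR, at -0.72 ± 0.20 (adjusted p = 0.037). The TRM28 call was lost without PEAR1-GR DMSO replicate 1 or 2 or DEX replicate 2 or 3 (-0.67 to -0.44), and that of TRM25 without PEAR2-GR DMSO replicate 1 or 3 or DEX replicate 2 or 3 (-0.87 to -0.55). TRM26 was the one other row of the families past the threshold for a larger DEX difference with CHX than without, in PEAR2-GR at 0.46 ± 0.13, and it lost that call for 9 of 12 arrays left out (0.40 to 0.51).

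**Figure D4:**
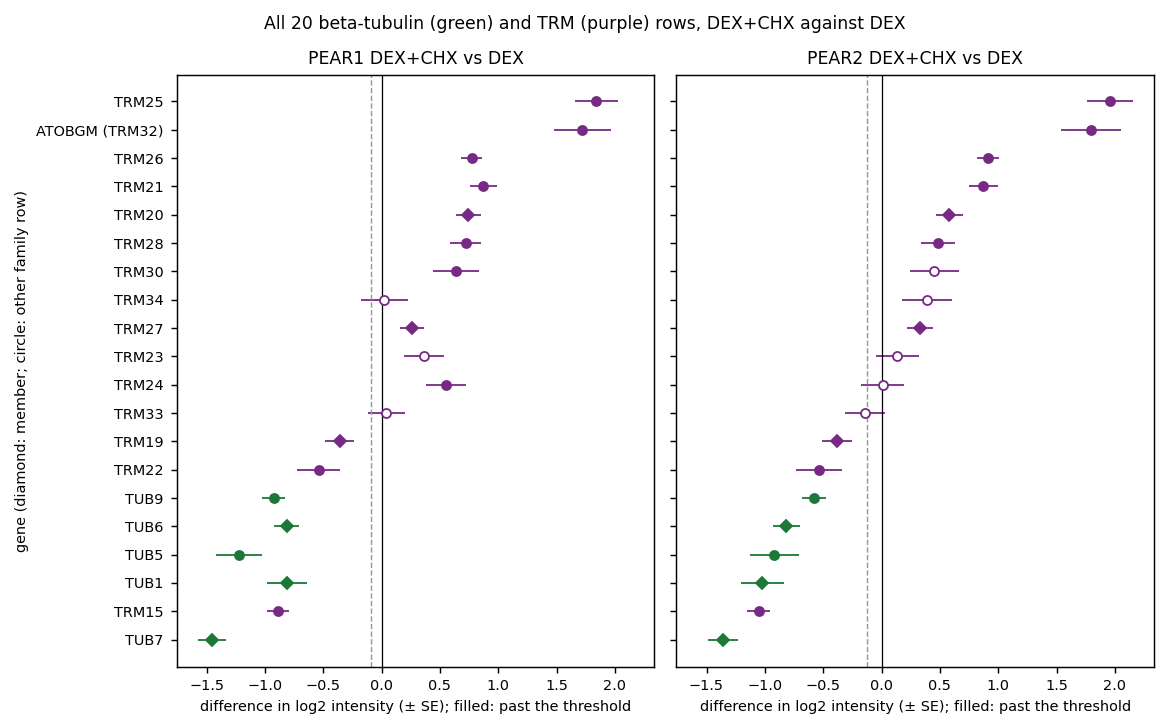
Difference in log2 intensity with SE (x axis) of the same 20 rows (y axis), DEX+CHX against DEX, in PEAR1-GR (left) and PEAR2-GR (right), with diamonds for the members, filled symbols past the threshold and a dashed line at the median of all rows. All 5 beta-tubulin rows lie below 0, and the TRM rows spread from TRM15 at -0.89 and -1.05 to TRM25 at 1.84 and 1.96.

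Under CHX the beta-tubulins moved one way and the TRM genes both ways. All 5 beta-tubulin rows were lower, past the threshold, by DEX+CHX against DEX and by DMSO+CHX against DMSO in both lines, which includes TUB5 at -1.22 ± 0.20 and -0.92 ± 0.21 and TUB9 at -0.93 ± 0.10 and -0.58 ± 0.10 (DEX+CHX against DEX, PEAR1-GR and PEAR2-GR in that order). None of the TUB5 and TUB9 calls was lost when 1 array was left out. By DMSO+CHX against DMSO, 25.2% of all rows were lower in each line. For TUB1, TUB6 and TUB7 the lower values there in PEAR2-GR are favoured by the choice, and nothing is read from them. Of the 14 other rows, 7 were higher with DEX+CHX than with DEX and 4 lower in PEAR1-GR, and 5 were higher and 4 lower in PEAR2-GR. The 7 include TRM24, a row of low level. Of all 17504 rows, 8057 (46.0%) were called there in PEAR1-GR, of which 4545 (26.0% of all rows) were lower and the rest higher. In PEAR2-GR 7911 (45.2%) were called, of which 4604 (26.3% of all rows) were lower and the rest higher. So 4 of 14 lower is near the share of all rows, and nothing is read from the number that were higher. Those that rose most were TRM25, by 1.84 ± 0.18 (adjusted p = 1.57e-08) in PEAR1-GR and 1.96 ± 0.20 (adjusted p = 2.05e-08, limma with Benjamini-Hochberg adjustment) in PEAR2-GR, and the row that RefSeq names ATOBGM and lists as TRM32, by 1.72 ± 0.24 and 1.80 ± 0.26. TRM15 fell, at -0.89 ± 0.09 in PEAR1-GR and -1.05 ± 0.10 in PEAR2-GR. TRM21 rose by 0.87 ± 0.12 in PEAR1-GR and TRM26 by 0.91 ± 0.10 in PEAR2-GR. TRM22 was lower with DMSO+CHX than with DMSO, at -1.09 ± 0.20 in PEAR1-GR and -1.33 ± 0.20 in PEAR2-GR.

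Other genes of the microtubule and division machinery were read from lists, and 15 of these genes had a row with 1 gene. They were 1 of 6 alpha-tubulins, 1 of 9 genes of the gamma-tubulin complex, 2 of 4 tubulin folding factors and 2 of 39 microtubule-associated proteins. The others were 2 of 23 kinesins, 1 of 3 TON1 partners, 4 of 23 division genes and 2 of 9 actins. Most genes on these lists thus had no row of their own and were not read. For DEX+CHX against DMSO+CHX, limma called 0 of 15 in PEAR1-GR, with 2 at an unadjusted p under 0.05, and 1 of 15 in PEAR2-GR. That row was PFI, the tubulin folding cofactor E, which was lower, at -0.29 ± 0.09 (adjusted p = 0.0448, limma with Benjamini-Hochberg adjustment), where 3.48% of all rows were lower. The PFI call was lost without PEAR2-GR DEX+CHX replicate 2 or 3 and without any DMSO+CHX replicate (-0.35 to -0.23). TON1B, the partner that gives the TRM family its name, differed by -0.19 ± 0.10 in PEAR1-GR and -0.15 ± 0.11 in PEAR2-GR, short of the threshold. TUA6, the alpha-tubulin with a row, differed by 0.15 ± 0.20 and 0.32 ± 0.22 and was not past it either. The group means of TUA6 were 0.96 to 2.15 (log2), below the 2.68 that bounds the 33.3% of rows with the lowest mean. Some changes in its RNA may therefore be missed, though not all were. By DMSO+CHX against DMSO, TUA6 was lower past the threshold, at -0.69 in PEAR1-GR and -1.19 in PEAR2-GR. By DEX+CHX against DEX, TUA6 was so in PEAR1-GR, at -0.66, but not in PEAR2-GR, at -0.45. The PEAR1-GR calls were lost without PEAR1-GR DMSO replicate 2 and PEAR1-GR DEX replicate 3, in that order. Changes may also be missed for the actin ACT12, with group means of 1.54 to 2.01. By DEX against DMSO, 0 of 15 passed in either line, with 1 at an unadjusted p under 0.05 in each.

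With CHX most of these 15 rows were lower, as the beta-tubulins were. Between DEX+CHX and DEX, 12 of 15 fell and 1 rose in PEAR1-GR, and 8 fell and 1 rose in PEAR2-GR, beside 26.0% and 26.3% of all rows lower. The actin ACT11 fell, at -1.42 ± 0.16 in PEAR1-GR and -1.06 ± 0.17 in PEAR2-GR, and KINESIN-12B, a motor of the phragmoplast, at -1.23 ± 0.19 and -1.18 ± 0.21. ATMAP65-6, of a family of microtubule cross-linkers, fell, at -1.02 ± 0.13 and -0.59 ± 0.14. AUR1, an aurora kinase of dividing cells, fell, at -0.62 ± 0.13 and -0.47 ± 0.14, the second of which was lost without PEAR2-GR DEX+CHX replicate 2 (-0.60 to -0.36). TON1B fell, at -0.32 ± 0.10 and -0.41 ± 0.11. The 1 that rose was KEU, a vesicle fusion regulator needed for cytokinesis, by 0.83 ± 0.09 and 0.84 ± 0.10 (PEAR1-GR and PEAR2-GR in that order). The median of the 15 was -0.62 in PEAR1-GR and -0.41 in PEAR2-GR, beside -0.58 and -0.60 for the 6 members (log2). The members' median joins unlike families, with -0.81 and -1.02 for their beta-tubulins and 0.26 and 0.33 for their TRM genes.

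Rows with a pattern like each member's were taken by Pearson's r over the 25 arrays, as a description. Many rows differed between groups with and without CHX, so r is given separately over the 13 arrays with CHX and the 12 without. For TUB7 the nearest row was AT1G80230, with r of 0.935 with CHX and 0.341 without. For TUB6 it was AT1G44608, with 0.955 and 0.275, and for TUB1 AT5G15320, with 0.853 and 0.64. Among the TRM genes, TRM20 was nearest to CBL (AT3G57050), with 0.891 with CHX and 0.814 without, and TRM19 to AT2G07749, with 0.866 and 0.688. TRM27 was nearest to AT2G45590, with 0.794 and 0.937. Each nearest row was picked for its high r over the 25 arrays, which include both sets. The CHX arrays also hold the groups that the choice is taken to rest on. Nothing is read from the size of r. Between members, r over the CHX arrays is not given, since those arrays hold the groups whose difference the choice is taken to rest on. Of 15 pairs of members, TRM20 and TRM27 had the highest r of deviations from group means, 0.599, and TUB6 and TRM27 the lowest, -0.333.

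Limits of identity apply. The beta-tubulins are much alike in protein sequence, and whether the signal of one row includes RNA of another was not tested. Probe positions are not given in the files used here. In RefSeq TAIR10.1, the loci of 5 of the 6 members overlap another protein-coding locus, AT1G75770 and AT1G75785 for TUB1, AT5G12240 for TUB6, AT2G29540 for TUB7, AT3G53530 for TRM19 and AT4G28770 for TRM20, and that of TRM27 overlaps none.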

How the data were processed

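Biotin-labelled total RNA was hybridised to 25 arrays with a single colour, per the labels' protocols. The deposited values are log2 intensities that the authors made with RMA, per the submitters' processing notes. This method subtracts background, equalises the arrays and combines probes into 1 value a row. Its version and the array's genome build were not given in the sources used here. Detection calls were not used, and low values may still be signal. The table has 38408 rows and 25 columns, and 0 columns were left unused. In the platform annotation 16746 rows name 1 gene, 758 several and 20904 none, and 16601 of the first matched RefSeq (TAIR10.1).

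Groups, replicate numbers, times and batches came from the labels. A limma model (limma 3.58.1 in R 4.3.3, lmFit and eBayes) gave each group its own mean and used all 25 arrays, and every group adds to the estimate of the spread. The threshold is an adjusted p under 0.05 (Benjamini-Hochberg), taken over 17504 rows with 1 or more gene names. The share of these rows at an unadjusted p under 0.05 was not computed, and nothing is read from counts at that level. A batch term cannot be estimated, since batch A461 holds DMSO+CHX alone. The members, the gene lists and the comparisons were chosen with earlier results of these data known. Named genes are the 6 members, the 2 rows nearest to each by Pearson's r over all arrays (the first of which is given), and at most the 4 largest changes of a list in a comparison among list genes past the threshold in some comparison. TUB5, TUB9, TRM22, TRM26, TUA6 and TON1B for DEX+CHX against DMSO+CHX, and TRM26 for the contrast of DEX differences, were named after their values were seen. So were TRM23, TRM24, TRM33 and ACT12, for their low level.

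Alternatives were to fit only the arrays compared, to give the prior an intensity trend and make it robust, to drop the 33.3% of rows with the lowest mean, to normalize by quantiles once more, to shift arrays to the same 75th percentile, to test all rows of the table, to block on the replicate number, and to omit single arrays. The replicate numbers were checked for pairing by the correlation of deviations from group means. Over 18 same-numbered pairs it ran from -0.118 to 0.0642 in PEAR1-GR and from -0.08 to 0.0969 in PEAR2-GR, so the numbers were not taken to pair samples. The fit was tested on simulated data. Python 3.11.15 with matplotlib 3.10.9 drew the figures. No sequences or coordinates are printed.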

Additional observations from a re-analysis of the deposited data

How the results depend on the processing

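Counts of members past the threshold by limma (Benjamini-Hochberg adjusted) moved by more than 1.5 times in 4 of 14 comparisons. Fitting only the arrays compared left 0 members by DEX against DMSO in PEAR1-GR (1 with all arrays) and 1 by DEX+CHX against DMSO+CHX in PEAR1-GR (3 with all arrays). For the DEX difference with CHX minus without, the same fit left 0 in PEAR1-GR (2 with all arrays) and 1 in PEAR2-GR (3 with all arrays), and testing all rows of the table left 1 in PEAR1-GR. With the replicate number as a block, which takes PEAR1-GR DEX+CHX replicate 4, with no partner, out of the comparison, this PEAR1-GR count was 0. The block took 6 members' calls below the threshold over all comparisons and 1 above it, and moved no other count of members by over 1.5 times. The cause of the changes was not tested, beyond the fewer arrays in the first fit and the more rows in the second.

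Leaving out 1 array in turn gave 0 to 2 members for that contrast in PEAR1-GR and 1 to 4 in PEAR2-GR. The ranges were 2 to 3 in PEAR1-GR and 4 to 5 in PEAR2-GR for DEX+CHX against DMSO+CHX, 4 to 6 and 5 to 6 for DEX+CHX against DEX, and 5 to 6 and 4 to 5 for DMSO+CHX against DMSO. Of 714 values of single members with 1 array left out, 647 kept their direction and side of the threshold, 61 fell below it, 6 came above it and none past the threshold turned its direction. Signal over background was not available, so a limit from dim probes could not be given.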
